A study of Mus musculus with 8 samples.

Results

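Autophagy genes and the MiT/TFE transcription factors were examined in mouse embryonic stem cells (mESCs) that differed in KLF3, a Kruppel-like zinc finger factor. The members were 40 genes taken by name: 36 genes of the core autophagy machinery and its cargo receptors, the factors Tfeb, Tfe3 and Mitf, and Flcn. Of these, 39 were listed in each of the 2 expression tables, which hold 13056 and 14319 protein-coding genes. Expression of Map1lc3b was not analysed here, and only its promoter was read.

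In autophagy, a double membrane closes around cytoplasm, protein aggregates or organelles and delivers them to the lysosome for degradation. The ULK1 kinase complex starts the process, a lipid kinase complex built on PIK3C3 marks the growing membrane with PI3P, and 2 linked conjugation reactions attach ATG8 proteins to its lipids, where cargo receptors bind them. The transcription factors TFEB, TFE3 and MITF turn on genes of lysosomes and autophagy when they are in the nucleus. FLCN acts with mTORC1 at the lysosome to keep them in the cytoplasm, and in mESCs this control of TFE3 bears on the exit from pluripotency.

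RNA was measured in 8 samples of 4 conditions in 2 experiments, with 2 samples per condition. All samples were mESCs of a C57BL/6(F) x 129/sv(M) cross, grown on gelatin with serum and LIF. In the first experiment, 500 KLF3-GFP-positive or KLF3-GFP-negative cells per sample were sorted from a picked line in which a CAGGS promoter drove the N-terminal part of KLF3, without its DNA-binding domain, fused to Emerald GFP, and in which an EF1α promoter drove DsRed. Their cDNA was made with Smart-seq2, a full-length protocol that does not mark the strand. In the second, codon-optimized KLF3 (KLF3-OE-72h) or GFP (GFP-OE-72h) was induced with doxycycline for 72 hours in clones carrying the rtTA activator at R26 and a FRT site at Col1a1, and poly(A) RNA was sequenced. The sources used here do not say whether the 2 samples of a condition came from separate clones or cultures.

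Values are FPKM, fragments scaled by transcript length and by sequencing depth, and each is the authors' average of 2 replicates. The spread between replicates and the depth are unknown, so the values carry no SD, interval or test, and no difference could be set against replicate error. A difference is that of log2(FPKM + 1) between the 2 conditions of an experiment, which understates the change of genes near 1 FPKM. A gene was counted when its mean over both conditions was at least 1 FPKM, and was called when it differed by more than 2-fold on this scale. Experiments were never compared in level because their protocols differed. In RNA from a pool of cells, fewer cells expressing a gene and less RNA per cell cannot be told apart.

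Several measures of the whole libraries moved with the groups. The 84 ribosomal protein genes took 30.6% of all FPKM in KLF3-GFP-negative mESCs against 26.3% in KLF3-GFP-positive cells, and 28.9% in GFP and 38.9% in KLF3 overexpressing cells. Klf3 was at 107 FPKM in KLF3-GFP-negative mESCs against 122 FPKM in KLF3-GFP-positive mESCs, and at 58.7 FPKM in GFP and 47.8 FPKM in KLF3 overexpressing cells, where reads of the codon-optimized transgene need not align, so neither checks the labels. All 11 primitive endoderm markers were higher past 2-fold in both experiments, their sum going from 11.5 to 745 FPKM in sorted cells and from 36.2 to 211 FPKM in overexpressing cells, with Foxa2 and Cubn at the lowest value of 0.1 FPKM in KLF3-GFP-negative cells. Naive pluripotency markers were lower, with 6 of 10 below the limit and 1 above it in sorted cells (sum 506 to 245 FPKM) and 3 of 10 below it in overexpressing cells (sum 1932 to 1544 FPKM). Of 10 fibroblast and feeder markers 4 were listed in sorted cells and 6 in overexpressing cells, and they summed to 1.13 and 0.71 FPKM in sorted cells and to 5.71 and 5.80 FPKM in the overexpression experiment, and the 5 listed of 8 haematopoietic markers to 10.5 and 19.5 FPKM and to 23.5 and 24.6 FPKM. The Y-linked gene Eif2s3y was at 30.9 FPKM in GFP and 1.67 FPKM in KLF3 overexpressing cells, and Ddx3y (3.34 FPKM in GFP cells) and Uty (3.56 FPKM) were at the lowest value of 0.1 FPKM in KLF3 overexpressing cells, so that the effect of KLF3 and a difference between clones cannot be told apart. The part of these differences in the results was not tested.

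Promoters were read because the MiT/TFE factors bind E-boxes with the letters CACGTG, and Kruppel-like factors bind C-rich boxes written here as CCNCNCCC. RefSeq promoters of the GRCm38.p6 assembly, 250 bases before to 50 bases after each start, were found for 33 of the 40 members. CACGTG, searched on both strands, stood in the promoters of 4 members, Atg3, Atg5, Atg7 and Atg14 (12.1% of members, 8.09% of all 27025 genes). Its extended form TCACGTGA, which contains CACGTG, was found in Atg3 alone (3.03% of members, 1.12% of all genes). Among 19 lysosomal genes written down as known MiT/TFE targets, 12 held CACGTG (63.2%) and 7 held TCACGTGA (36.8%), but that list is not independent of the motif. The related letters CATGTG were found in Atg2a alone (3.03% of members, 15.9% of all genes). CCNCNCCC was found in 26 of 33 members (78.8%), in 14 of the 19 lysosomal genes (73.7%) and in 51.9% of all genes, so a high share was not particular to the members. These matches describe letters, not bound sites, and the promoters below are those of the member with TCACGTGA, of a member called higher (Atg7) and of a member called lower (Ulk1) in overexpressing cells, and of the gene with the widest difference (Gabarap). Of the other called members, Atg2a held CCNCNCCC 3 times and Atg9a held it once, and they are not printed. For the called members Map1lc3a and Calcoco2, and for Rb1cc1, Becn1, Pik3c3, Atg12 and Atg16l1, no promoter was found. Each line gives the 250 bases before the RefSeq start, 5′ to 3′ on the gene's strand. Capitals mark CACGTG, with its flanking letters where they make TCACGTGA, in Atg3 (chr16:45158579-45158828, plus strand) and in Atg7 (chr6:114670846-114671095, plus strand), and CCNCNCCC on either strand in Ulk1 (chr5:110810082-110810331, minus strand). Gabarap (chr11:69991120-69991369, plus strand) held none of these letters. Most of its window lies downstream of the start at chr11:69991143 that the expression data give the gene. The sequence before that start was therefore mostly not read, and which start these transcripts used was not measured.
Atg3: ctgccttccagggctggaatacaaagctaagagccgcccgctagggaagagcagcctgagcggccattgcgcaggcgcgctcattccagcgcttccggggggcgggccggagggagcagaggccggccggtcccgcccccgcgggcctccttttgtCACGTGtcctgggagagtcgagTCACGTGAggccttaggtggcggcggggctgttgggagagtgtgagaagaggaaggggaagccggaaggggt
Atg7: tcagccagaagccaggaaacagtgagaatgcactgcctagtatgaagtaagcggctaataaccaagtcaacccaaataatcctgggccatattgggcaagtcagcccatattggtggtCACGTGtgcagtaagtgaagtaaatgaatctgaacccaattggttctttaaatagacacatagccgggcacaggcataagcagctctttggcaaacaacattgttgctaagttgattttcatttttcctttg
Gabarap: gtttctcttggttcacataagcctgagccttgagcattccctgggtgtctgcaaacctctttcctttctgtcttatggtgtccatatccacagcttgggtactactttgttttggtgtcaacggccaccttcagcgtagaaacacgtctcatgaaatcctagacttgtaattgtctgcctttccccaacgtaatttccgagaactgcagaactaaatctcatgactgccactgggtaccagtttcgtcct
Ulk1: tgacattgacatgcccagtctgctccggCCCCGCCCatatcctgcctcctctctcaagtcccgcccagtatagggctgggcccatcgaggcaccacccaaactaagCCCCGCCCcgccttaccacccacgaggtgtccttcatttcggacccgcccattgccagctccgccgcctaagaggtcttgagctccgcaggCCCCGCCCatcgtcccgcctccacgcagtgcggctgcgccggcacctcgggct

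The first comparison asked how KLF3-GFP-positive mESCs differed from KLF3-GFP-negative mESCs of the reporter line. Gabarap and Atg2a were higher past 2-fold in KLF3-GFP-positive cells, Calcoco2 was lower, and the other 31 of 34 members counted lay within the limit. The share called higher was 5.88%, against 13.8% of all 9212 genes counted, and the share called lower was 2.94%, against 8.32%. Of the 34 members, 22 lay above 0 and 12 below, with a median of 0.27 on the log2 scale against 0.03 for all genes. Of the members, 35.3% lay below 0, and of all genes 48.1%. By level, of 16 members with a mean under 5 FPKM, 13 lay above 0 (81.3%, against 54.3% of all genes at that level), whereas 9 of 18 at or above 5 FPKM did. The members not counted, all with a mean under 1 FPKM, were Ulk2, Ambra1, Atg2b, Atg4c and Mitf.

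The second comparison asked what 72 hours of KLF3 overexpression changed against GFP. Atg7 and Map1lc3a were higher past 2-fold in KLF3 overexpressing cells, Ulk1 and Atg9a were lower, and 35 of 39 members lay within the limit. The shares called were 5.13% higher, against 6.60% of all 11179 genes, and 5.13% lower, against 10.1%. Counting small differences too, 31 of 39 members lay below 0 (79.5%, against 59.4% of all genes), with a median of -0.48 against -0.18. Scaling the columns to a median ratio of 1 moved the median of all genes from -0.18 to 0, and 69.2% of members then lay below 0, against 50.0% of all genes. In this experiment long genes were lower than short ones (Spearman's rho of the difference with genomic span -0.40 over the 11179 genes of the same libraries, and -0.06 over the 39 members), and the members were long, with a median span of 36.6 kb against 21.7 kb. With the trend on span removed, 61.5% of members lay below 0, against 50.7% of all genes, and their median was -0.11. The split of member calls, 2 higher and 2 lower as deposited, became 2 and 1 with median-ratio scaling (10.4% and 6.22% of all genes), with quantile normalization (7.16% and 6.36%; 71.8% of members and 51.9% of all genes then lay below 0) and with the span trend removed (7.10% and 5.26%).

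**Figure D1:**
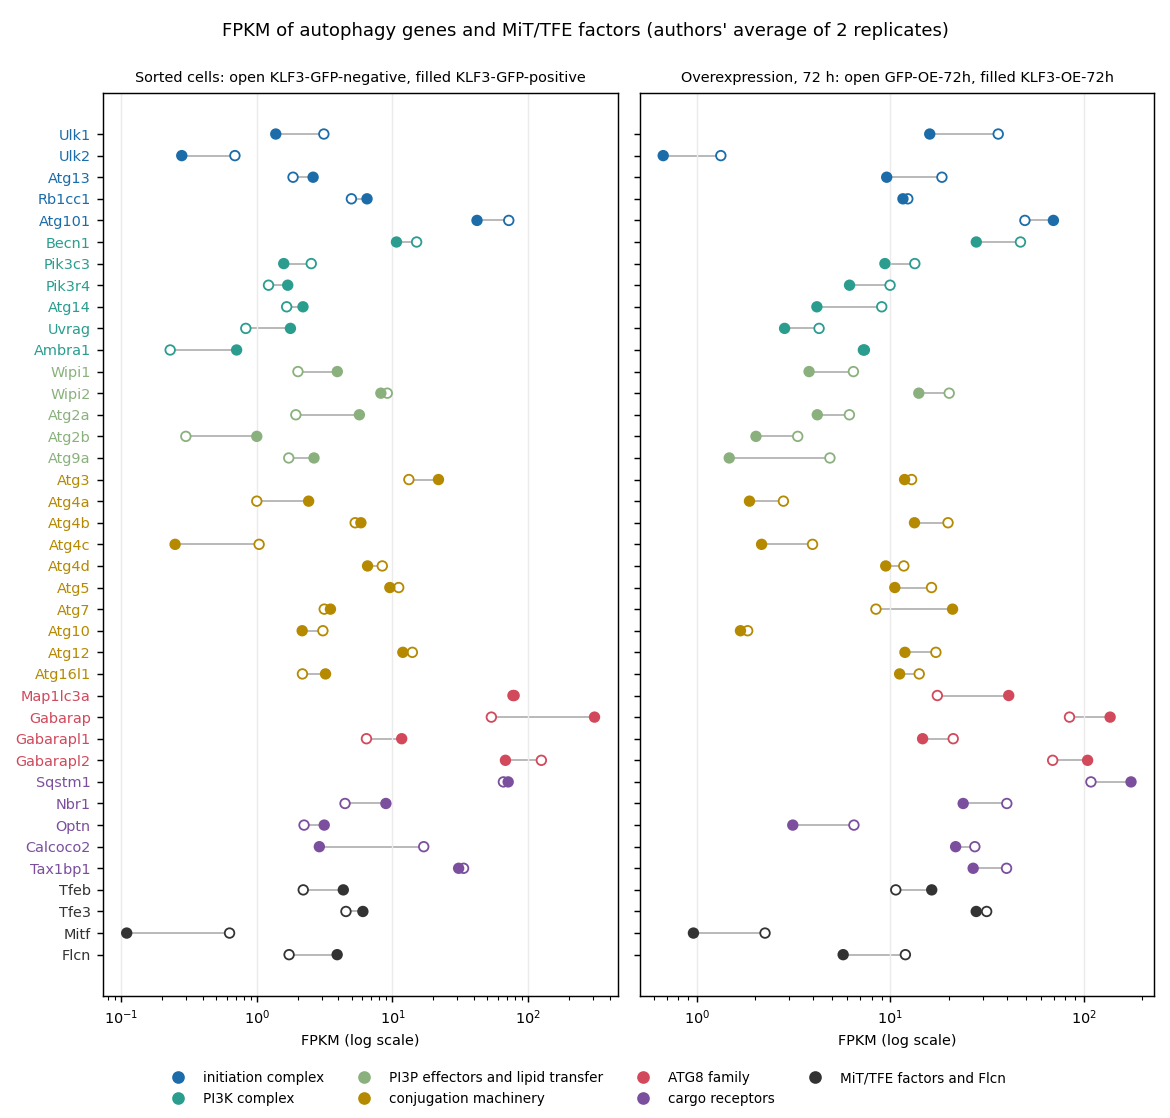
FPKM (log axis) of the 39 listed members in sorted cells (left) and in the overexpression experiment (right), open circles for KLF3-GFP-negative or GFP-OE-72h and filled circles for KLF3-GFP-positive or KLF3-OE-72h, coloured by step; each circle is the authors' average of 2 replicates. Gabarap moves from 53.5 to 308 FPKM and Calcoco2 from 16.99 to 2.89 FPKM in sorted cells, while most other pairs lie close together.

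The plot of FPKM by member shows a wide range of levels within the pathway. In KLF3-GFP-negative cells, 6 members were at 30 FPKM or more, namely Gabarapl2, Map1lc3a, Atg101, Sqstm1, Gabarap and Tax1bp1, and the other 33 were at 16.99 FPKM or less. The same 6 were at 30 FPKM or more in KLF3-GFP-positive cells. In GFP cells of the overexpression experiment 9 members reached that level, and in KLF3 overexpressing cells 5.

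**Figure D2:**
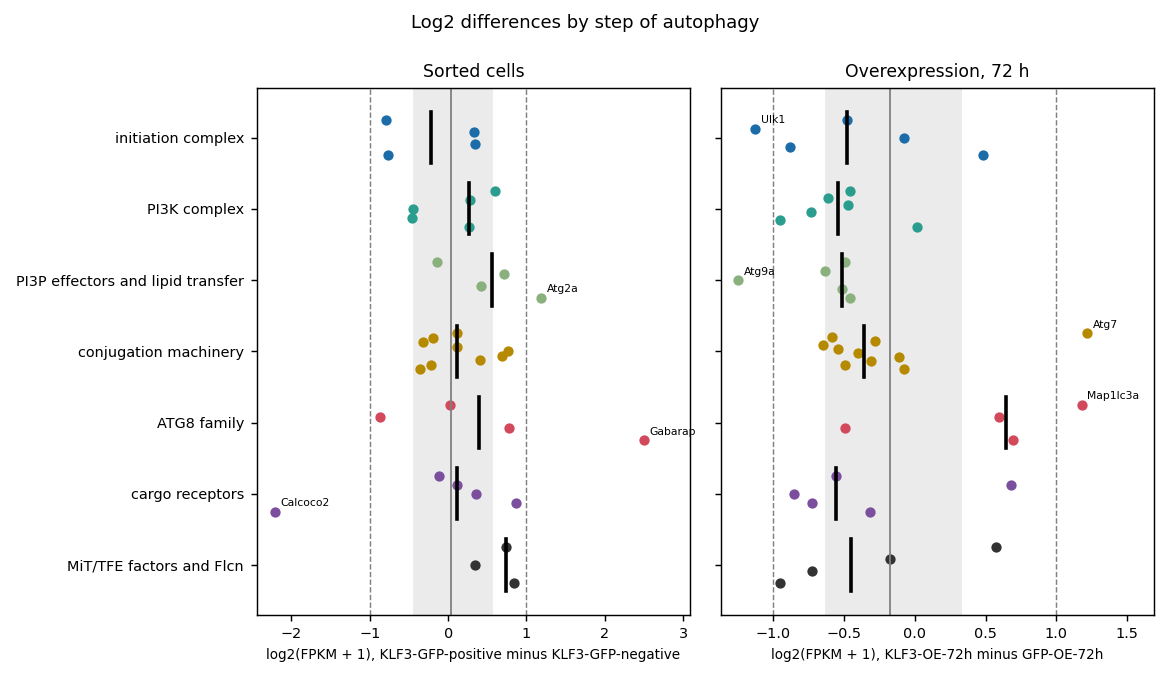
Difference of log2(FPKM + 1) for each counted member (points), grouped by step of autophagy, in sorted cells (left) and in the overexpression experiment (right); black bars are medians of a step, the grey line and band are the median and the middle 50% of all genes, and dashed lines mark the 2-fold limit. Points of the ATG8 family spread widest to the right, from -0.87 to 2.503 in sorted cells, and in overexpressing cells as deposited the ATG8 family is the step with a median above 0.

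In the initiation complex, the kinase ULK1 phosphorylates the other proteins of its complex and the lipid kinase complex. Ulk1 (ENSMUSG00000029512, mm10 chr5:110784488-110810097) was at 3.12 FPKM in KLF3-GFP-negative mESCs against 1.38 FPKM in KLF3-GFP-positive cells, a difference of -0.79. It was at 36.1 FPKM in GFP and 16.0 FPKM in KLF3 overexpressing cells, a difference of -1.13, or 2.26-fold lower in plain FPKM. Ulk1 was thus lower in both experiments and past the limit in the second, where the call was lost with median-ratio scaling (-0.93) and with the span trend removed (-0.86). Its promoter, printed above, held CCNCNCCC 3 times in 300 bases. Atg13, a regulatory subunit, was at 1.85 and 2.6 FPKM in sorted cells (0.34) and at 18.5 and 9.57 FPKM in overexpressing cells (-0.88). Atg101, which stabilizes ATG13, went the other way, from 71.9 to 42.0 FPKM in sorted cells (-0.76) and from 49.55 to 69.5 FPKM in overexpressing cells (0.48). Rb1cc1, the scaffold FIP200, was at 4.98 and 6.49 FPKM and at 12.3 and 11.6 FPKM. Ulk2, the paralog of Ulk1, was at 0.69 and 0.28 FPKM and at 1.33 and 0.67 FPKM. The subunits of this complex therefore did not share a direction in sorted cells, and 4 of 5 lay below 0 in overexpressing cells, with a median of -0.48 that became 0.0042 with the span trend removed.

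In the lipid kinase complex, 0 of 5 counted members were called in sorted cells and 0 of 6 in overexpressing cells, counts too small to set beside the shares of all genes given above. PIK3C3 makes PI3P, PIK3R4 holds the complex together, BECN1 is its regulatory core, and ATG14 or UVRAG directs it to autophagosomes or endosomes. Becn1 was at 15.1 and 10.7 FPKM in KLF3-GFP-negative mESCs against KLF3-GFP-positive mESCs (-0.46), and at 47.0 and 27.8 FPKM in GFP and KLF3 overexpressing cells (-0.74). The annotation gives 43.9% of its exonic bases to Cntd1 as well, on the opposite strand. Uvrag had the highest difference in sorted cells, from 0.83 to 1.77 FPKM (0.60). Atg14 had the lowest in overexpressing cells, from 9.02 to 4.17 FPKM (-0.95), just inside the limit. The median was 0.26 over 5 counted members in sorted cells and -0.54 over 6 in overexpressing cells, where 5 lay below 0. The latter median was -0.36 with median-ratio scaling and -0.10 with the span trend removed, when 4 of 6 lay below 0. Ambra1, a BECN1 partner, was the exception at 7.25 and 7.34 FPKM, and was too low to be counted in sorted cells (0.23 and 0.71 FPKM).

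The next step brings lipid and PI3P effectors to the membrane, and ATG2A carries lipids from the endoplasmic reticulum into the growing membrane. Atg2a (ENSMUSG00000024773, mm10 chr19:6241668-6262335) was at 1.94 FPKM in KLF3-GFP-negative mESCs against 5.70 FPKM in KLF3-GFP-positive cells, a difference of 1.19, or 2.94-fold in plain FPKM. In overexpressing cells it was at 6.14 FPKM with GFP and 4.19 FPKM with KLF3 (-0.46), so the directions were opposite. ATG9A is a lipid scramblase on the vesicles that seed the membrane. Atg9a (ENSMUSG00000033124, mm10 chr1:75180860-75192196) was at 1.72 and 2.64 FPKM in sorted cells (0.42), and at 4.87 FPKM with GFP and 1.47 FPKM with KLF3, a difference of -1.25, or 3.31-fold lower. That was the lowest difference of any member in overexpressing cells. The call was lost with quantile normalization (-0.98), and the annotation gives 31.8% of the exonic bases of Atg9a to Gm29253 on the same strand. Wipi1, which reads PI3P, was at 2.01 and 3.92 FPKM in sorted cells (0.71) and at 6.44 and 3.80 FPKM in overexpressing cells (-0.63). Its relative Wipi2, which recruits ATG16L1, was at 9.15 and 8.21 FPKM (-0.14) and at 20.1 and 14.0 FPKM (-0.49). Atg2b was at 0.30 and 1.0 FPKM and at 3.32 and 2.02 FPKM. All 5 genes lay below 0 in overexpressing cells under each of the scalings tried, the span trend included.

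In the conjugation machinery, ATG7 activates both ATG12 and the ATG8 proteins, ATG3 and ATG10 hand them on, ATG5 and ATG16L1 form the ligase with ATG12, and the ATG4 proteases trim ATG8 proteins. Atg7 (ENSMUSG00000030314, mm10 chr6:114643097-114860614) was at 3.14 and 3.49 FPKM in KLF3-GFP-negative mESCs against KLF3-GFP-positive mESCs (0.12), a difference within the limit. It was at 8.42 FPKM with GFP and 20.95 FPKM with KLF3, a difference of 1.22, or 2.49-fold. It was the highest difference of any member in that experiment and was called under each alternative tried. The other 9 genes of the step lay below 0 in overexpressing cells, down to Atg4c, at 3.96 and 2.16 FPKM (-0.65). With either scaling 7 of the 10 genes lay below 0, and with the span trend removed 5 of 10 did. The Atg7 window printed above lies at a RefSeq start downstream of the start that the table gives the gene, so which start these transcripts used was not measured. Atg3, whose promoter held TCACGTGA, was at 13.2 and 21.8 FPKM in sorted cells (0.68) and at 12.9 and 11.8 FPKM in overexpressing cells (-0.11). Atg4a had the highest difference of the step in sorted cells, from 1.0 to 2.41 FPKM (0.77), and reads of its copy Atg4a-ps may be split between them. Atg10 had the lowest, from 3.07 to 2.16 FPKM (-0.37). The step's median in sorted cells was 0.12, and -0.05 with quantile normalization.

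The small proteins of the ATG8 family sit on the membrane and bind cargo receptors and tethers. Gabarap (ENSMUSG00000018567, mm10 chr11:69991143-69994951) was at 53.5 FPKM in KLF3-GFP-negative mESCs against 308 FPKM in KLF3-GFP-positive mESCs, a difference of 2.503, or 5.76-fold. It was the highest difference of any member in sorted cells and was called under each alternative. In overexpressing cells Gabarap was at 84.2 FPKM with GFP and 137 FPKM with KLF3 (0.69), the same direction but within the limit. Gabarapl2, also called GATE-16, was at 125 and 68.0 FPKM in sorted cells (-0.87) and at 68.9 and 104 FPKM in overexpressing cells (0.59), opposite in direction. Map1lc3a (ENSMUSG00000027602, mm10 chr2:155276297-155278073), which encodes LC3A, was at 77.2 and 78.8 FPKM in sorted cells (0.03). It was at 17.5 FPKM with GFP and 40.9 FPKM with KLF3, a difference of 1.18, or 2.34-fold, and the call was lost with the span trend removed (0.64). Gabarapl1 was at 6.43 and 11.7 FPKM in sorted cells (0.77) and at 21.1 and 14.7 FPKM in overexpressing cells (-0.50). The annotation gives 28.3% of its exonic bases to 1700101I11Rik on the opposite strand.

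**Figure D3:**
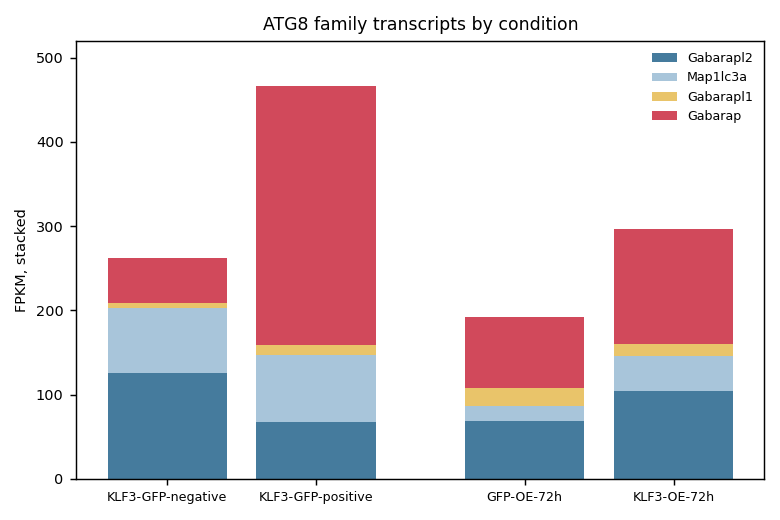
Stacked FPKM (linear axis from 0) of the 4 listed ATG8 family genes in each condition, the authors' average of 2 replicates. In KLF3-GFP-positive cells Gabarap fills 66.0% of the bar, against 20.4% in KLF3-GFP-negative cells, while in the overexpression experiment its share is 43.9% with GFP and 46.05% with KLF3.

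Since the roles of these genes overlap, their summed level and makeup were compared, as the stacked plot of the ATG8 family shows. The sum of the 4 listed genes, which leaves out Map1lc3b, was 262 FPKM in KLF3-GFP-negative mESCs against 467 FPKM in KLF3-GFP-positive mESCs. Without Gabarap it was 209 and 158 FPKM, so the higher sum rested on that gene. The most abundant of the 4 listed transcripts was Gabarapl2 in KLF3-GFP-negative cells (47.7% of the sum) and Gabarap in KLF3-GFP-positive cells (66.0%). In overexpressing cells the sum was 192 FPKM with GFP and 297 FPKM with KLF3, and 108 and 160.0 FPKM without Gabarap, so there the higher sum did not rest on it alone. The FPKM of all listed genes also summed higher, 612621 with GFP and 834882 with KLF3 (904629 and 947917 in sorted cells). The 4 genes were short, with a median span of 6.47 kb. In the overexpression experiment 60.6% of all genes under 15 kb lay above 0, with a median of 0.19. The part of either in the higher sum was not tested.

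Among the cargo receptors, CALCOCO2, also called NDP52, links damaged mitochondria and bacteria to ATG8 proteins. Calcoco2 (ENSMUSG00000006056, mm10 chr11:96099326-96111964) was at 16.99 FPKM in KLF3-GFP-negative mESCs against 2.89 FPKM in KLF3-GFP-positive cells, a difference of -2.21, or 5.88-fold lower. It was the lowest difference of any member in sorted cells and was called under each alternative. In overexpressing cells it was at 27.3 FPKM with GFP and 21.7 FPKM with KLF3 (-0.32). Sqstm1, the ubiquitin receptor p62 and itself a substrate of autophagy, was at 65.7 and 71.2 FPKM in sorted cells (0.12) and at 109 and 175 FPKM in overexpressing cells (0.68). Part of it, 17.3% of the exonic bases, overlaps Mrnip on the opposite strand. Nbr1, which binds ubiquitin together with p62, was at 4.47 and 8.94 FPKM (0.86) and at 40.0 and 23.8 FPKM (-0.73). Optn, a receptor for damaged mitochondria, was at 2.23 and 3.14 FPKM (0.36) and at 6.48 and 3.13 FPKM (-0.86). Tax1bp1, a paralog of Calcoco2, was at 33.4 and 30.7 FPKM (-0.12) and at 39.8 and 26.8 FPKM (-0.56). The receptors therefore differed widely in sorted cells, and 4 of 5, all but Sqstm1, lay below 0 in overexpressing cells.

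Of the MiT/TFE factors and Flcn, 0 of 3 counted genes were called in sorted cells, where 13.8% of all genes were higher and 8.32% lower, and 0 of 4 in overexpressing cells (6.60% and 10.1%), counts too small to set these genes apart. Tfeb was at 2.2 FPKM in KLF3-GFP-negative mESCs against 4.34 FPKM in KLF3-GFP-positive cells (0.74), and at 10.7 FPKM with GFP and 16.35 FPKM with KLF3 (0.57), above 0 in both. With the span trend removed, its difference in overexpressing cells was 1.05. Tfe3, the most abundant of the factors, was at 4.54 and 6.05 FPKM in sorted cells (0.35) and at 31.4 and 27.8 FPKM in overexpressing cells (-0.17). Mitf was at 0.63 and 0.11 FPKM in sorted cells, too low to be counted, and at 2.25 and 0.96 FPKM (-0.73), the lowest level of the family in each condition. Flcn was at 1.73 and 3.91 FPKM in sorted cells (0.85) and at 11.95 and 5.70 FPKM in overexpressing cells (-0.95), opposite in direction. With a pseudocount of 0.1 FPKM both Flcn differences passed the limit, at 1.13 and -1.05. Transcript levels do not measure where these proteins are in the cell.

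**Figure D4:**
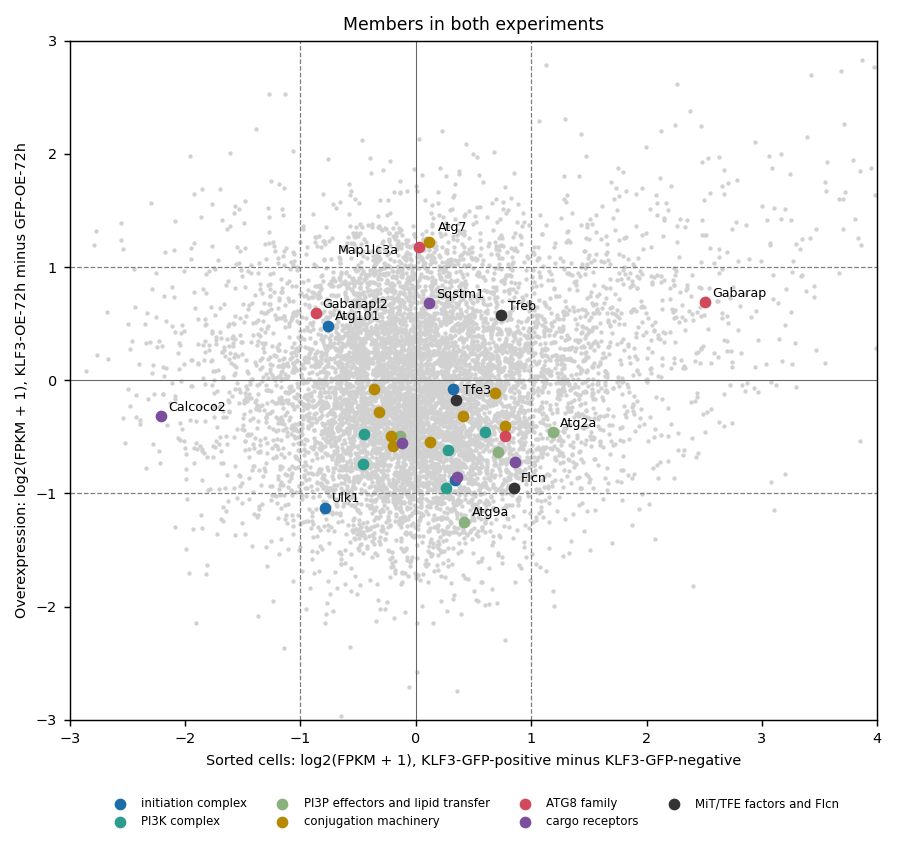
Difference of log2(FPKM + 1) in sorted cells (x axis) against that in the overexpression experiment (y axis) for the 34 members counted in both (coloured by step) and 8887 genes (grey); dashed lines mark the 2-fold limit, and 60 genes lie outside the axes. Of the members, 17 lie in the lower right quadrant and none lies past the limit in the same direction on both axes.

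The plot of both differences sets the experiments side by side, which share no samples. Of 34 members counted in both, 5 lay above 0 in both (Map1lc3a, Gabarap, Sqstm1, Atg7 and Tfeb), 10 lay below 0 in both, and 17 lay above 0 in sorted cells and below 0 in overexpressing cells. That last group was 50% of the members and 27.9% of all genes. The remaining 2, Atg101 and Gabarapl2, were lower in KLF3-GFP-positive and higher in KLF3 overexpressing cells. Of the members, 0 were called in the same direction in both experiments, as were 288 of all 8887 genes, too small a share to read anything from the members' count. With a pseudocount of 0.1 FPKM, Ulk1 was past the limit and lower in both, at -1.12 and -1.17. The counts on either side of 0 move with the scaling of the columns, by which up to 3 members in sorted cells and 4 in overexpressing cells changed side. With the span trend removed, 0 members in sorted cells and 7 in overexpressing cells did.

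**Figure D5:**
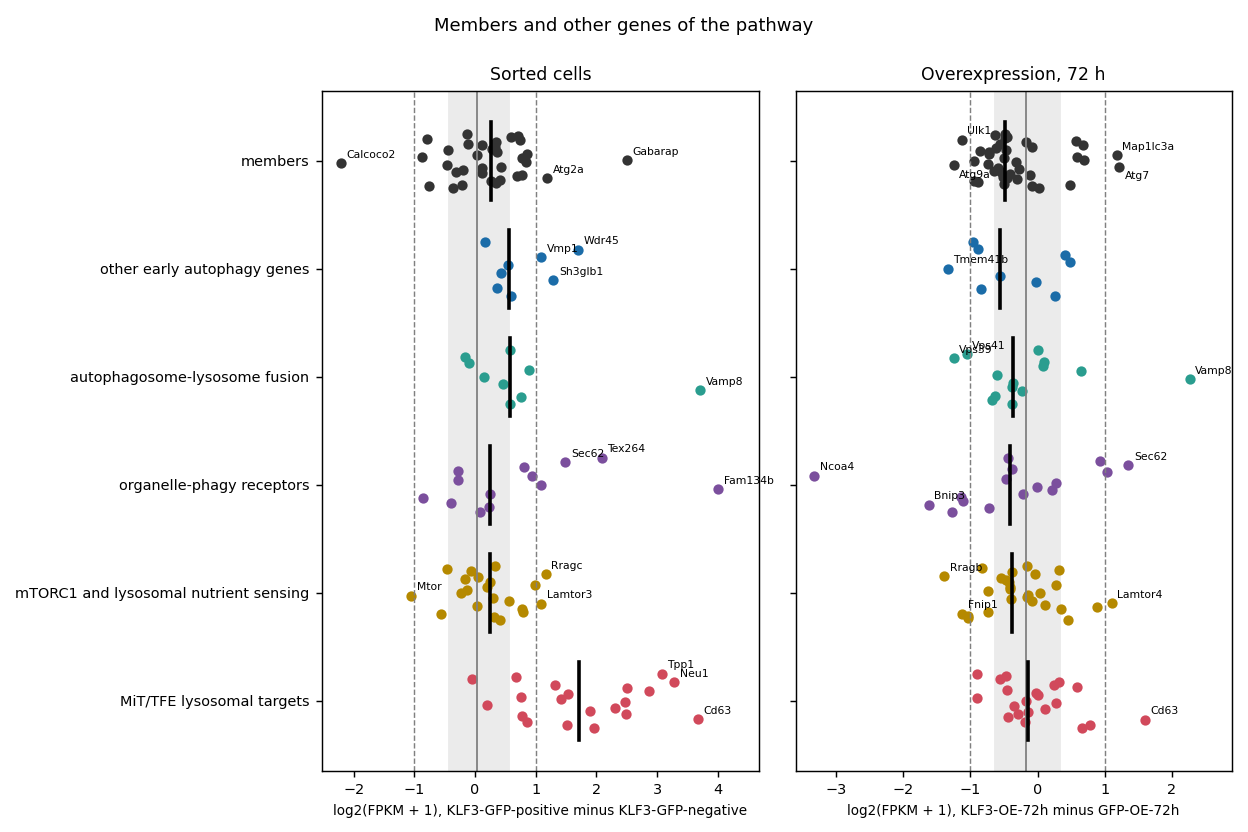
Difference of log2(FPKM + 1) for the members and for 5 lists of other genes of the pathway, in sorted cells (left) and in the overexpression experiment (right); points are counted genes, black bars medians, the grey line and band the median and middle 50% of all genes, and dashed lines the 2-fold limit. The lysosomal targets stand to the right in sorted cells, with a median of 1.72 against 0.27 for the members, and the members' median in overexpressing cells is -0.48.

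Other genes of the pathway, listed by function, were set beside the members. Of 8 other early autophagy genes counted in sorted cells, the median was 0.57 and none was called lower (8.32% of all genes). Of these 8, 3 were called higher (37.5%, against 13.8% of all genes). They were Wdr45, a PI3P reader related to the WIPI proteins, from 5.76 to 20.9 FPKM (1.70), Sh3glb1, which binds the UVRAG complex, from 8.64 to 22.6 FPKM (1.29), and Vmp1, an endoplasmic reticulum scramblase, from 26.7 to 58.05 FPKM (1.09). Wdr45 shares 24.7% of its exonic bases with Gm45208 on the same strand. With quantile normalization or with the span trend removed, 2 of the 8 genes were called higher (1088 and 1204 of all 9212 genes). In overexpressing cells 0 of 9 were called higher (6.60% of all genes) and 1 lower (11.1%, against 10.1% of all genes). The lower gene was Tmem41b, which acts with Vmp1, at 22.7 FPKM with GFP and 8.40 FPKM with KLF3 (-1.33). Zfyve1 (-0.96) and Wdr45b (-0.89) lay below 0 within the limit. Of the 9 genes, 6 lay below 0 and 3 above. The WIPI relative with a call in sorted cells was thus Wdr45, not the members Wipi1 or Wipi2.

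Of genes for fusion with the lysosome, 1 of 9 was called higher in sorted cells (11.1%, against 13.8% of all genes) and none lower. Vamp8, a SNARE protein of that fusion that also serves endosomes and secretory granules, was at 46.9 and 624 FPKM (3.71). Vps18 (0.88) and Snap29 (0.76) came next, within the limit, and 7 of the 9 genes lay above 0 and 2 below. In overexpressing cells Vamp8 was again called higher, at 20.7 and 103 FPKM (2.27). It was the 1 of 14 genes so called (7.14%, against 6.60% of all genes). The HOPS tethering subunits Vps39 (-1.25) and Vps41 (-1.05) were lower, 2 of 14 genes (14.3%, against 10.1%). Of the other HOPS subunits, Vps11 (-0.61) lay below 0, and Vps16 (0.65), Vps33a (0.10) and Vps18 (0.08) lay above it. With median-ratio scaling 1 gene of the list was called lower (6.22% of all genes). With quantile normalization (6.36%) or the span trend removed (5.26%) 0 were. The list's median there was -0.37, and 0.03 with the span trend removed. Vamp8 exceeded each member in size of difference in both experiments.

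Of receptors for organelles, 13 were counted in sorted cells and none was called lower (8.32% of all genes). Of these, 4 were called higher (30.8%, against 13.8% of all genes). They included receptors for the endoplasmic reticulum: Fam134b, from 0.42 to 21.9 FPKM (4.01), Tex264, from 10.2 to 46.7 FPKM (2.09), and Sec62, from 25.7 to 74.0 FPKM (1.49). With quantile normalization 3 of the 13 were called higher (1088 of all 9212 genes). In overexpressing cells 2 of 16 were called higher (12.5%, against 6.60% of all genes) and 5 lower (31.25%, against 10.1%). These calls became 3 and 3 with median-ratio scaling (10.4% and 6.22% of all genes). They were 2 and 3 with quantile normalization (7.16% and 6.36%), and 2 and 2 with the span trend removed (7.10% and 5.26%). Sec62 was again higher, at 23.6 and 61.9 FPKM (1.36). Ncoa4, the receptor for ferritin, was at 21.4 FPKM with GFP and 1.23 FPKM with KLF3 (-3.33), and Bnip3, a mitochondrial receptor, at 55.6 and 17.5 FPKM (-1.62). The mitochondrial receptors went both ways there. Phb2 was called higher, at 194 and 399 FPKM (1.04), and Fkbp8 (0.28) lay above 0. Bnip3l (-1.11) was called lower, and Bcl2l13 (-0.73) and Fundc1 (-0.47) lay below 0. Of the other endoplasmic reticulum receptors, Fam134c was also called higher in sorted cells, at 1.10 and 3.47 FPKM (1.09). Rtn3 (0.81) and Fam134a (0.24) lay above 0 there. Ccpg1 alone of those counted lay below 0 in sorted cells, at 3.35 and 1.39 FPKM (-0.86). Atl3, too low to be counted there, was at 0.82 and 0.53 FPKM. In overexpressing cells Ccpg1 (-1.14) and Atl3 (-1.27) were called lower, so there the receptors did not share a direction.

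The lysosomal genes known as MiT/TFE targets were called higher in 14 of the 20 cases reported in sorted cells (70%, against 13.8% of all genes). Their median was 1.72, and their sum went from 604 to 3444 FPKM. Those with the widest differences were Cd63, a lysosomal tetraspanin, from 133 to 1708 FPKM (3.67), Neu1, a sialidase, from 4.51 to 52.7 FPKM (3.28), and Tpp1, a peptidase, from 2.31 to 26.9 FPKM (3.08). The autophagy members, some of which are also described as targets of these factors, had a median of 0.27. In overexpressing cells 1 of the 21 lysosomal genes reported was called higher (4.76%, against 6.60% of all genes). It was Cd63, from 75.8 to 233 FPKM (1.61). Glb1, at 45.0 and 23.5 FPKM (-0.91), and Tpp1, at 18.9 and 9.66 FPKM (-0.90), lay below 0 within the limit. Of the 21 genes, 12 lay below 0 and 9 above. The list's median was -0.13, and 0.07 with median-ratio scaling.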

How the data were processed

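The authors sequenced RNA of 8 samples, and per the submitters' processing notes reads were aligned to mm10 with STAR 2.6.0 (the study's methods name an earlier version) and quantified with Cufflinks 2.2.1, with GENCODE as guide. The deposited values are FPKM, 1 column per condition, each the authors' average of 2 replicates, given to 2 decimals. They cover protein-coding genes and go down to 0.1. Counts, depth and replicate values are not part of these columns, so limma, which had been planned for values per replicate, could not be run, and no interval is given. No column was left without a condition (0 unmapped).

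Differences of log2(FPKM + 1) were computed with Python 3.11.15, pandas 2.3.3 and numpy 2.4.6 (lowess from statsmodels 0.14.6 with a fraction of 0.3, figures with matplotlib 3.10.9) where the mean over both columns reached 1 FPKM, and called above 1 or below -1. The code was tested on simulated data. Alternatives were no minimum, a pseudocount of 0.1, no pseudocount with a floor of 0.1, a minimum of 5 FPKM, median-ratio scaling, quantile normalization and removal of the trend with genomic span. Members named are those called in either experiment, the MiT/TFE factors and Flcn, and the highest and lowest of each step in each experiment, and from each list of other pathway genes the 3 with the widest difference. Others are named with their values. A gene of the lysosomal target list is not reported here and was left out of that list's counts, medians and sums. Members and lists were chosen with earlier results of these data known. Promoters and their build are RefSeq's (GRCm38.p6), and shared exonic bases are from the mouse annotation of the same assembly.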

Additional observations from a re-analysis of the deposited data

How the results depend on the processing

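No paired analysis was possible because each table holds 1 average per condition, and for the same reason leaving out each replicate was not run. In sorted cells, the 2 members called higher became 5 with a pseudocount of 0.1 FPKM or with a floor of 0.1 FPKM and no pseudocount, and 1 with a minimum of 5 FPKM. The 1 member called lower became 2 with that pseudocount, with that floor and with quantile normalization. The median of 0.27 was 0.38 with the pseudocount, 0.39 with the floor, 0.15 with quantile normalization and -0.044, below 0, with the minimum of 5 FPKM, which leaves out the weakly expressed members. In overexpressing cells, the 2 members called lower became 6 with the pseudocount or the floor, and 1 with the minimum of 5 FPKM, median-ratio scaling, quantile normalization or the span trend removed. The median of -0.48 was -0.30 with median-ratio scaling, -0.23 with quantile normalization and -0.11 with the span trend removed. The number called higher there was 2 under each alternative. Over the named members, 305 of 327 values under an alternative kept their side of the limit, 18 moved past it and 4 fell back inside it. No called member changed direction. The 305 include values under no minimum and under the minimum of 5 FPKM. Those settings decide which genes are counted and leave each difference unchanged, so these values kept their side by construction. Smaller pseudocounts act on genes of low FPKM, whose precision is unknown without counts. Beyond these constructions, the cause was not tested.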

Other observations

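Genes of mTORC1 and lysosomal nutrient sensing, the pathway that restrains the ULK1 complex and the MiT/TFE factors when amino acids are plentiful, were counted for 21 genes in sorted cells. Of these, 2 were called higher (9.52%, against 13.8% of all genes) and 1 lower (4.76%, against 8.32%), with a median of 0.24. With quantile normalization 1 was called higher (1088 of all 9212 genes). Mtor, the kinase itself, was at 22.6 FPKM in KLF3-GFP-negative mESCs against 10.4 FPKM in KLF3-GFP-positive cells (-1.05). Rragc, the Rag GTPase on which FLCN acts, was at 2.6 and 7.08 FPKM (1.17), and Lamtor3, a subunit of the Ragulator complex that holds the Rag GTPases on the lysosome, was the other gene called higher (1.09). Of the other Rag GTPases, Rraga was at 37.4 and 38.5 FPKM (0.04), Rragd at a difference of -0.06, and Rragb, too low to be counted, at 1.77 and 0.17 FPKM.

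In overexpressing cells, 27 genes of this list were counted, with a median of -0.38 that was -0.0070 with the span trend removed. Of these, 1 was called higher (3.70%, against 6.60% of all genes) and 4 lower (14.8%, against 10.1%). The higher and lower calls became 2 and 1 with median-ratio scaling (10.4% and 6.22% of all genes). They were 1 and 1 with quantile normalization (7.16% and 6.36%), and 0 and 2 with the span trend removed (7.10% and 5.26%). Rragb, another Rag GTPase, was at 13.6 FPKM with GFP and 4.55 FPKM with KLF3 (-1.39). Fnip1, the binding partner of FLCN, was lower as well (-1.12), and Lamtor4, a Ragulator subunit, was higher (1.11). Fnip1 and Flcn (-0.95) both lay below 0 in KLF3 overexpressing cells, as did 70.4% of this list and 59.4% of all genes. In sorted cells both lay above 0, at 0.78 and 0.85.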
